A study of Mus musculus with 17 samples.

Results

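The Trim30 and Trim12 gene cluster is a run of tandem copies on chromosome 7 of the mouse, here represented by Trim34a, Trim12a, Trim12c, Trim30b, Trim30c, Trim30a and Trim30d in that order. Open chromatin around these 7 genes was read from peak lists of ATAC-seq, an assay in which the Tn5 transposase cuts accessible DNA, made from bone marrow-derived macrophages (BMDMs). The regions described were selected on position and on measured peaks. They are the sites within 20 kb of the gene bodies (mm10 chr7:104224457-104527849, 303 kb) at which at least 2 of the 17 lists held a peak among their best 24389, the length of the shortest list. This gave 16 of 34158 such sites in the genome, and 267 of the 1001519 entries of all lists. The genes themselves were proposed with earlier results of these lists in view, and which of their values chose them is not recorded, so no difference between groups given here is independent support for the choice.

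The lists came from male C57Bl6/J mice aged 6 to 12 weeks, wild type (WT) or Nur77-KO. The KO was whole-body: mice expressing Cre from the human cytomegalovirus promoter had been bred with mice carrying a loxP-flanked Nr4a1 locus, the gene of the nuclear receptor Nur77, and the KO mice used had then lost Cre. The titles call these samples KO and their genotype label reads "cre". WT mice were littermates. Bone marrow cells had been grown for 7 days with L929-conditioned medium and were then left untreated (0 h) or given 100 ng/ml LPS, the bacterial ligand of TLR4, for 1 h or 18 h. Each group had 3 lists, except WT at 1 h with 2, of which one is named replicate 1-2. Whether replicates came from separate mice is not stated, so p-values measure the spread between these lists, which may be technical.

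TRIM proteins are E3 ubiquitin ligases with a RING, a B-box and a coiled-coil domain, and many are induced by interferon. Trim30a encodes TRIM30α, which restrains Toll-like receptor signalling to NF-κB by promoting loss of the adaptors TAB2 and TAB3. The Trim12 genes and the neighbouring Trim5 are the mouse relatives of TRIM5α, the restriction factor that recognises retroviral capsids. Rodents have multiplied this locus by tandem duplication, so the copies resemble each other in coding sequence and around their starts.

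That resemblance was plain at the starts. Over 250 bases before and 50 after the most upstream GENCODE start of a coding transcript, Trim12c and Trim12a were 90.2% identical and Trim30a and Trim30d 90.8% identical, against a median of 48.9% and a maximum of 59.9% over 300 pairs of RefSeq promoters drawn at random. Trim30b was 81.7% identical to Trim30a, and Trim30c was the most distant Trim30 start, at 67.5% to Trim30a. The 4 promoters of the closest pairs are shown because both members of each pair behaved differently in the lists. Sequences run 5′ to 3′ along the gene from the reference genome (mm10), and capitals mark bases that differ from the other member of the pair or face a gap, 18 mismatches in each pair with 12 gap columns for Trim12 and 10 for Trim30.
Trim12c promoter, chr7:104353313-104353612, minus strand: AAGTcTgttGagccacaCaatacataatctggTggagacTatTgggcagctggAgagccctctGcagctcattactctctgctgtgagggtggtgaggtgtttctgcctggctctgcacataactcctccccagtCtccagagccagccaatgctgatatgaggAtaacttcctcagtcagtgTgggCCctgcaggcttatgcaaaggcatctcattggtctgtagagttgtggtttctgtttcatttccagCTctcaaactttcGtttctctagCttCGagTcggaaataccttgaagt
Trim12a promoter, chr7:104315414-104315713, minus strand: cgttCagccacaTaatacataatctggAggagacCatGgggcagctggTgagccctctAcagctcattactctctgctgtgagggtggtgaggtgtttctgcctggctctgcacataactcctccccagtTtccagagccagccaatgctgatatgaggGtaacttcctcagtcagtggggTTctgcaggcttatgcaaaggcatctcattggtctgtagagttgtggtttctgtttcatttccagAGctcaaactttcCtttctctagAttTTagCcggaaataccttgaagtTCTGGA
Trim30a promoter, chr7:104465144-104465443, minus strand: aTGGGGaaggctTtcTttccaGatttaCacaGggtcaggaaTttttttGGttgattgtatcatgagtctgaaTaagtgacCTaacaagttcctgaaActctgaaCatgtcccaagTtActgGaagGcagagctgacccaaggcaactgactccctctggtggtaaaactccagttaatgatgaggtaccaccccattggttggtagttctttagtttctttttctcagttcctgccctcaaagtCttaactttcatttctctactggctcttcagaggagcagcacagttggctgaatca
Trim30d promoter, chr7:104507800-104508099, minus strand: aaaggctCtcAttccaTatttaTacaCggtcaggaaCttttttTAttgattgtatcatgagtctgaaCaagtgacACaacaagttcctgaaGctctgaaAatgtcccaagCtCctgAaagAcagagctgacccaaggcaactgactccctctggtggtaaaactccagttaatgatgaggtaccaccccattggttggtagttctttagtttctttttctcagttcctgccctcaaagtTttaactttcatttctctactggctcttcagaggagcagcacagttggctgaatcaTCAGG

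The Trim30a gene held a further start inside its body, at chr7:104446125 by RefSeq, where GENCODE shows an intron. Its surroundings were 70% identical to the main Trim30a start. The windows of 201 bases centred on the best-ranked summits at Trim30c and at this internal start are shown next, because these were the regions with the largest differences after LPS. Capitals mark runs of at least 20 bases that are also in the window at the main Trim30a start, 52 bases at Trim30c and 77 at the internal start.
Trim30c promoter, chr7:104400994-104401194, minus strand: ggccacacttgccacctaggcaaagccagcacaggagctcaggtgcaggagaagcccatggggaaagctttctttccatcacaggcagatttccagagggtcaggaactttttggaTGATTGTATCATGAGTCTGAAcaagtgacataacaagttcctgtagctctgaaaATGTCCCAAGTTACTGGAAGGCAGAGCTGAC
Trim30a internal start, chr7:104446122-104446322, minus strand: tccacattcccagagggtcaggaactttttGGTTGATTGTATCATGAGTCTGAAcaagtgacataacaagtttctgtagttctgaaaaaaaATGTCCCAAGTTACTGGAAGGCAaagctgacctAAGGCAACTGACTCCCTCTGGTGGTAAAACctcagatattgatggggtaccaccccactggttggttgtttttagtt

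A pair of GAAA copies separated by 2 bases, the core of the interferon-stimulated response element (ISRE), were searched on both strands of the 300-base promoters. The core was present in 5 of the 7 genes and at the internal start of Trim30a, against 3.44% of 32851 RefSeq promoters. It read GAAACAGAAA in both Trim12 genes, from 16 to 7 bases before the start of Trim12c and from 22 to 13 before that of Trim12a. In Trim30a and Trim30d it read GAAAAAGAAA, and in Trim34a GAAACTGAAA. Trim30b and Trim30c had no match in this window. AP-1 (TGANTCA) matched in Trim30a and Trim30d, against 7.81% of RefSeq promoters. PU.1 (GAGGAAGT) and C/EBP (TTGCNNAA) matched in Trim12a and Trim12c, against 3.2% and 10.8%. GAS (TTCNNNGAA) matched in Trim30c, against 8.3%, and both strands were searched for each of these motifs. Matches to the NF-κB motif and to the Nur77 response element NBRE (AAAGGTCA, both strands) were in none of these promoters, against 4.51% and 1.51% of RefSeq promoters. A match is a description of letters, and these promoters are copies of each other rather than separate draws.

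Peaks were compared by rank. Within a list, intervals were ordered by the −log10 p-value in column 8, so that rank 1 is the strongest peak, and a site took the best rank of any peak overlapping it. The rank score was log2((24389 + 1)/rank), set to 0 when the list had no peak of rank 24389 or better, so that 1 unit is a halving of the rank. The lists differed in depth, from 24389 to 71456 intervals, with a background of 0.0581 to 2.11 reads per position recovered from the deposited fold and p-value columns. KO 18 h replicate 1 stood apart with intervals as short as 66 bp, and calls at 18 h that change without it are given both ways. Macrophage identity was clear, with 7 or 8 of 8 macrophage marker promoters among the best 24389 peaks of every list, against 0 of 4 for T cells and at most 2 of 4 for neutrophils and 1 for B cells, dendritic cells, fibroblasts and erythroid cells. Over the Nr4a1 gene body the best peak ranked 3736 to 5422 in WT and 11739 to 18154 in KO at 0 h, and 3315 to 4973 against 6613 to 9808 at 1 h, while at 18 h WT lists gave 10085 to 12169 and KO lists 22102, no peak, and 12117, the last within the WT range.

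The open sites at gene starts lay, on mm10, at chr7:104243933-104245248 for Trim34a, chr7:104314309-104316384 for Trim12a, chr7:104352196-104354257 for Trim12c and chr7:104369202-104370877 for Trim30b. Those of Trim30c, Trim30a and Trim30d lay at chr7:104400238-104402145, chr7:104464547-104466909 and chr7:104506539-104508598, and the internal start of Trim30a at chr7:104444839-104447160. Their best-ranked summits were 8 to 375 bases from the nearest GENCODE start, apart from the internal start, whose summit was 97 bases from the RefSeq start. Trim34a is transcribed from the plus strand and the other 6 members from the minus strand.

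At rest, the cluster had a clear order of openness. In untreated WT cells the main start of Trim30a led with ranks 5069, 5713 and 5590, and its internal start followed with 6440, 7523 and 5366, which overlap. Trim12c stood at 8548, 7830 and 7886 and Trim30b at 9119, 8121 and 8215, again overlapping each other but not the 2 starts of Trim30a. Trim34a (18400, 13575 and 14670), Trim30c (16417, 19090 and 16802), Trim30d (16737, 20615 and 16201) and Trim12a (25559, 23234 and 17233) formed a weaker set whose ranges overlap. In untreated KO cells the starts of Trim12c and Trim30b overlapped both starts of Trim30a, with 6144, 4842 and 8731 at the main Trim30a start and 5799, 7596 and 8790 at the internal one. There Trim12c ranked 8892, 5740 and 7705 and Trim30b 8085, 7713 and 8415, and in replicate 3 both stood ahead of both starts of Trim30a. Of the weaker set, Trim34a ranked 15855, 22049 and 15795 and Trim30c 14385, 15552 and 19948. Trim30d was listed in replicate 1 alone, at 62976, and Trim12a in none. The site labelled Trim30b begins the gene in GENCODE, whereas RefSeq assigns this start to Gm38525.

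**Figure D1:**
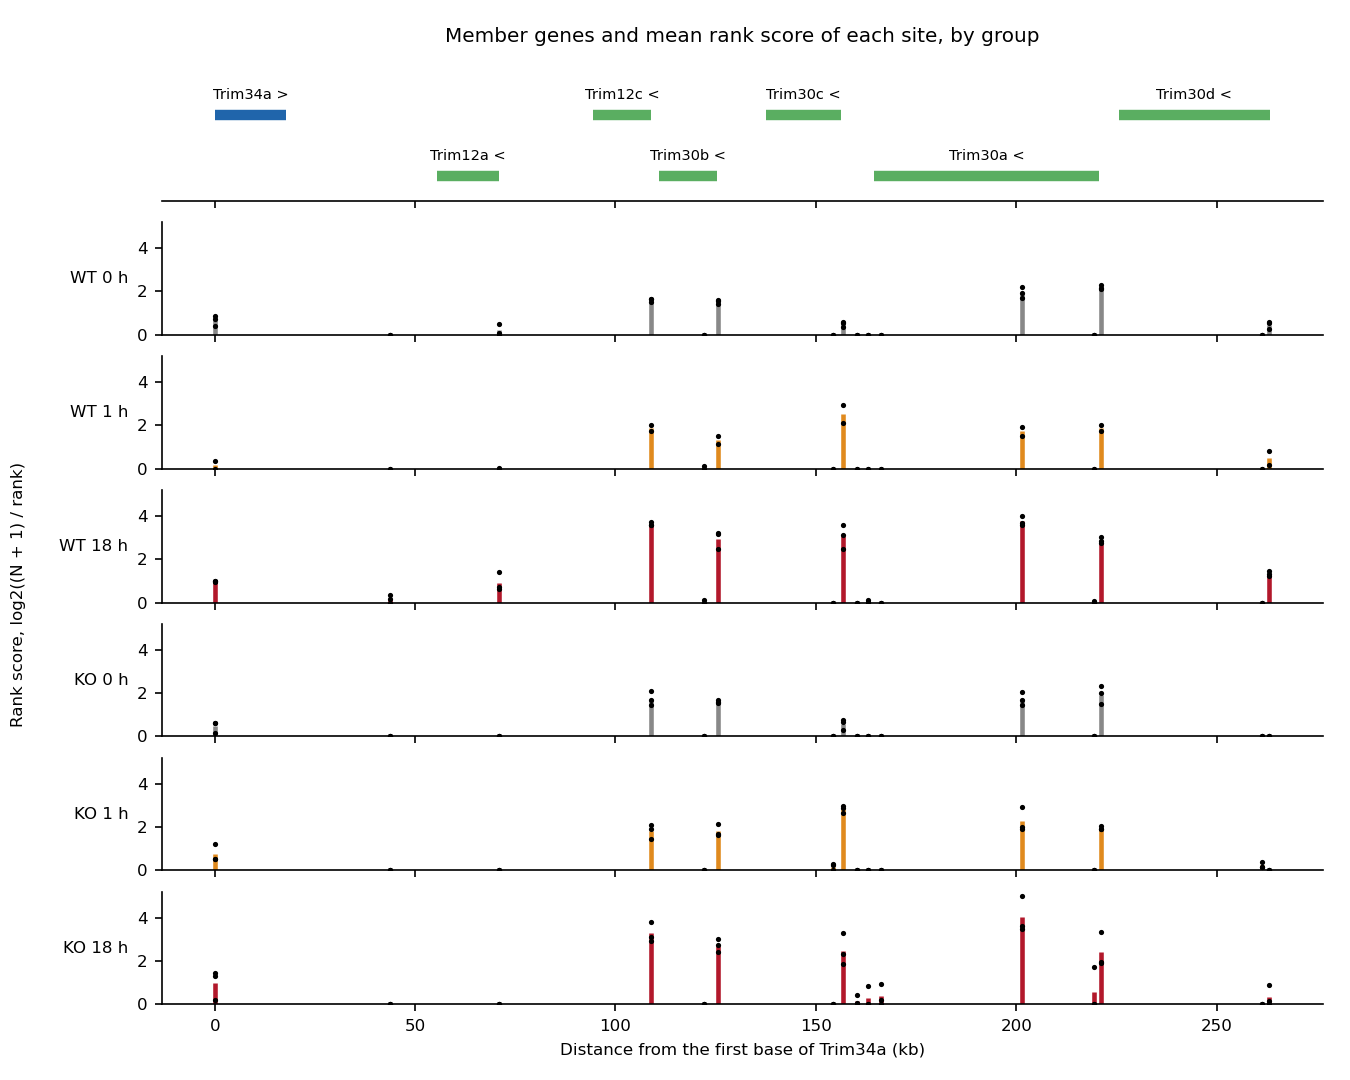
The 7 member genes (top, with the direction of transcription) and, for each group, the mean rank score of the 16 sites (bars) with 1 point per list, against distance in kb from the first base of Trim34a. The rank score is log2((N + 1)/rank) with N = 24389, and the tall bars stand at gene starts in every group.

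After 18 h of LPS, 4 sites of the cluster rose in rank in both genotypes: the starts of Trim12c, Trim30b and Trim30c and the internal start of Trim30a. These 4 of 16 sites (25%) were called higher at an adjusted p under 0.05, against 6.19% of all 34158 sites, and no member was called lower. Of the sites called in the genome, 2115 of 5072 were higher, and with each list's full length in place of the best 24389 this was 1148 of 7110. Without KO 18 h replicate 1, 5 members and 3487 sites were called higher, and without any one of the KO lists at 0 h, 4 members and 1045 to 1059 sites. When a peak had to cover 50% of a site, or when presence replaced the score, no site in the genome was called. With 50% cover the differences were 1.89 at Trim12c, 1.40 at Trim30b, 2.25 at Trim30c and 0.91 at the internal start. On the full list length the Trim30b start was no longer called (difference 0.93, adjusted p = 0.0632) and the Trim30d start was (0.63, adjusted p = 0.0321). The test was a two-sided exact permutation of lists within genotype, adjusted by Benjamini-Hochberg over all sites, and each of the 4 reached p = 0.005, the smallest this design allows (adjusted p = 0.0337). The median difference of the 16 sites was 0.33, against 0 for all sites, a description that the selection partly set. Trim5, both intergenic sites and the exon and intron of Trim30a were among the best 24389 peaks at 18 h alone, so their differences could not be negative. The Trim30b intron was so in WT lists at 1 h and 18 h, and the introns of Trim30c and Trim30d in KO lists at 1 h alone, which fixed the last pair at 0.

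Trim12c, a relative of the capsid-binding restriction factors, moved from ranks 8548, 7830 and 7886 to 2036, 2055 and 1868 in WT cells. In KO cells its ranks went from 8892, 5740 and 7705 to 2857, 1749 and 3191. No list at 18 h overlapped a list at 0 h of its genotype, and the rank score was higher by 1.78. At the summit in WT cells, reads went from 109.7 to 125 times the background to 133 to 138 times and listed widths from 1044 to 1159 bp to 1525 to 1916 bp. In KO cells both overlapped between times, with summits of 104 to 150.2 times at 0 h and 115 to 247 times at 18 h, and widths of 256 to 1264 bp and 299 to 1338 bp.

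The internal start of Trim30a reached rank 762 in one KO list, the best of the cluster in any list. At 18 h it ranked 1554, 1905 and 2037 in WT and 1979, 2166 and 762 in KO cells. Untreated lists of both genotypes lay between 5366 and 8790, with no overlap, and the difference was 2.05. The main start of the same gene moved less, to 3677, 3436 and 2991 in WT and 6404, 6245 and 2416 in KO cells. The first and second of those KO lists lay within the untreated KO range of 4842 to 8731, and its difference of 0.59 was not called (adjusted p = 0.107). In WT cells the summit of the internal start held 129 to 149 times the background at 0 h and 129.9 to 152 times at 18 h, which overlap, and that of the main start 137 to 172 times at 0 h and 107 to 112 times at 18 h, lower in every list. In KO cells the internal start held 123 to 139.7 times at 0 h and 143 to 285 times at 18 h, higher in every list, and the main start 123 to 164 and 85 to 162 times, which overlap.

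Trim30b ranked 2756, 2652 and 4382 in WT and 4644, 3675 and 3006 in KO cells at 18 h, against 7713 to 9119 over all untreated lists, a difference of 1.27. Its summit heights in WT cells overlapped, at 106 to 122 times the background at 0 h and 92.3 to 125 times at 18 h. Trim30c changed by 2.25, and by 1.49 when the best 10000 peaks were scored, with 2031, 4353 and 2792 in WT and 6749, 4925 and 2514 in KO cells at 18 h against 14385 to 19948 untreated. At Trim12a the WT lists went from 25559, 23234 and 17233 to 9253, 14636 and 15885 without overlap, but no KO list held a peak, and the pooled difference of 0.36 was not called (adjusted p = 0.244). Trim30d gave 9730, 10477 and 9008 in WT at 18 h and was likewise not called (difference 0.61, adjusted p = 0.0771). limma called both, Trim12a at an adjusted p of 0.0457 and Trim30d at 0.00954. At Trim34a, 12757, 12113 and 12276 in WT and 20999, 8886 and 9793 in KO cells gave 0.42 (adjusted p = 0.241), and without KO 18 h replicate 1 this became 0.62 (adjusted p = 0.032).

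**Figure D2:**
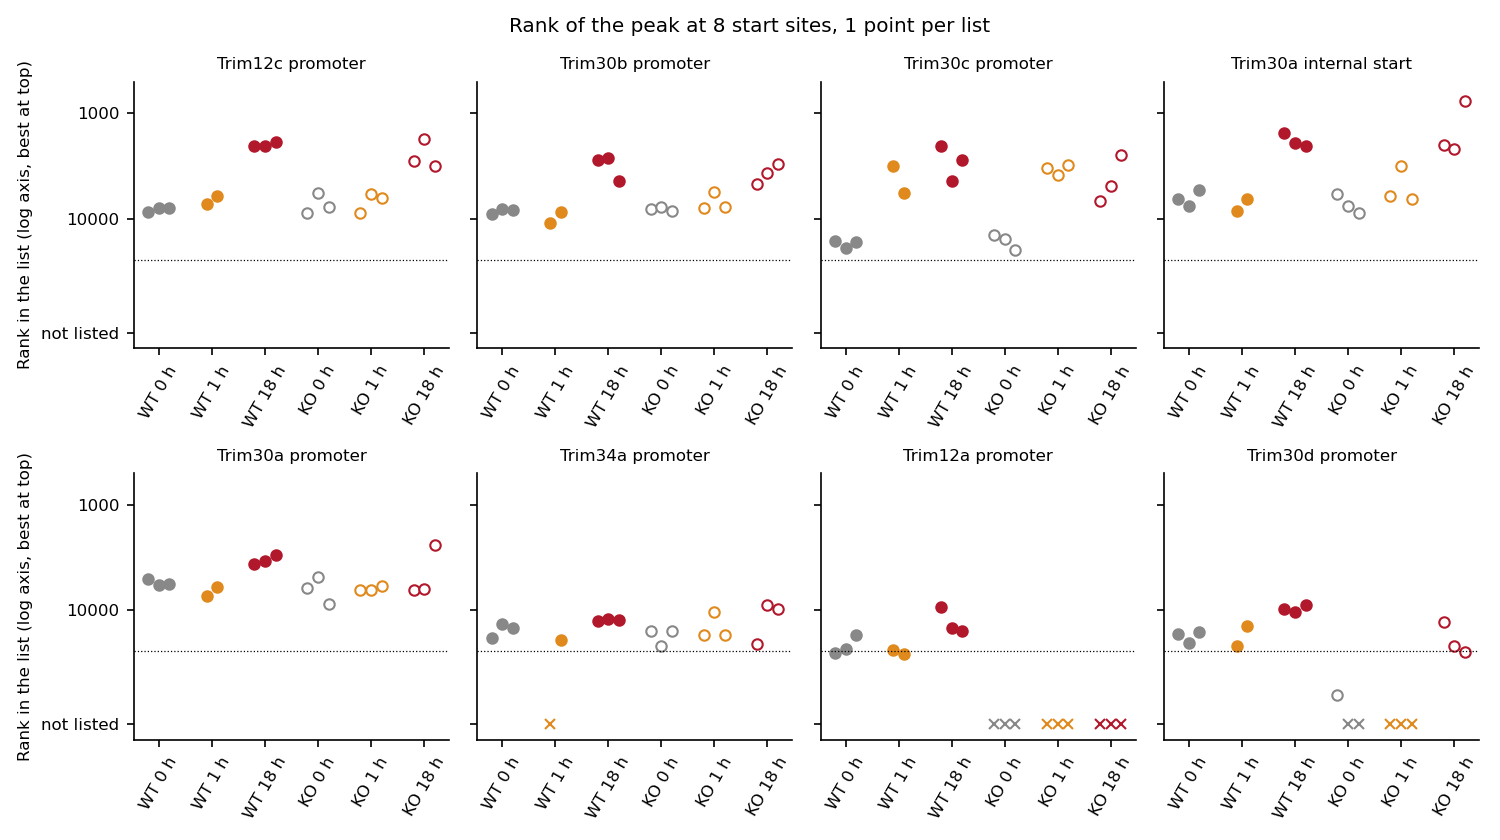
Rank of the peak at 8 start sites in each of the 17 lists (log axis, best at the top), with WT as filled and KO as open points, crosses for lists without a peak and a dotted line at rank 24389. Trim12c, Trim30b and the internal start of Trim30a sit higher at 18 h only, Trim30c at both LPS times, and Trim12a has crosses in all 9 KO lists.

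Trim30c was the only site of the cluster called after 1 h of LPS. Its ranks of 16417, 19090 and 16802 in untreated WT cells became 3175 and 5724, and the 14385, 15552 and 19948 of untreated KO cells became 3301, 3868 and 3105. The lists did not overlap in either genotype, and the difference of 2.15 reached the smallest possible p of 0.005 (exact permutation, adjusted p = 0.0272). One of 16 members (6.25%) was thus called higher, against 10.2% of all sites, so the cluster did not stand out from the background at 1 h.

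Reads at the Trim30c summit went from 52.2 to 64.8 times the background in untreated WT cells to 158 and 258 times at 1 h, and from 53.7 to 67.3 to 205 to 217 times in KO cells. By 18 h they were 94.9 to 138 times in WT and 98.4 to 162 times in KO cells. Within each genotype every list at 1 h lay above every list at 18 h in height, although not in rank. This comparison of heights was not tested. In WT lists the background was 0.0581 and 0.272 reads at 1 h and 0.877 to 1.84 at 18 h, so time and background cannot be told apart. WT summits at Trim12c, Trim30d and the main Trim30a start (172 and 155 against 107 to 112 times) were also higher at 1 h. Those of Trim12a, Trim30b and the internal start overlapped. KO backgrounds overlapped, at 0.104 to 0.683 and 0.105 to 0.314. In rank score the other starts showed no early step like that of Trim30c. At 1 h Trim12c changed by 0.18, Trim30b by 0.01, the internal start of Trim30a by 0.16 and its main start by -0.13, and none was called. Leaving out any list of WT at 0 h or 1 h, KO 0 h replicate 1 or KO 1 h replicate 1 ended the call at Trim30c (adjusted p from 0.0448 to 0.0799 over all lists left out in turn), and in those cases no site in the genome was called. With each list's full length the difference at Trim30c was 1.73 (adjusted p = 0.0871), and with peaks covering 50% of the site 1.203 (adjusted p = 0.252).

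**Figure D3:**
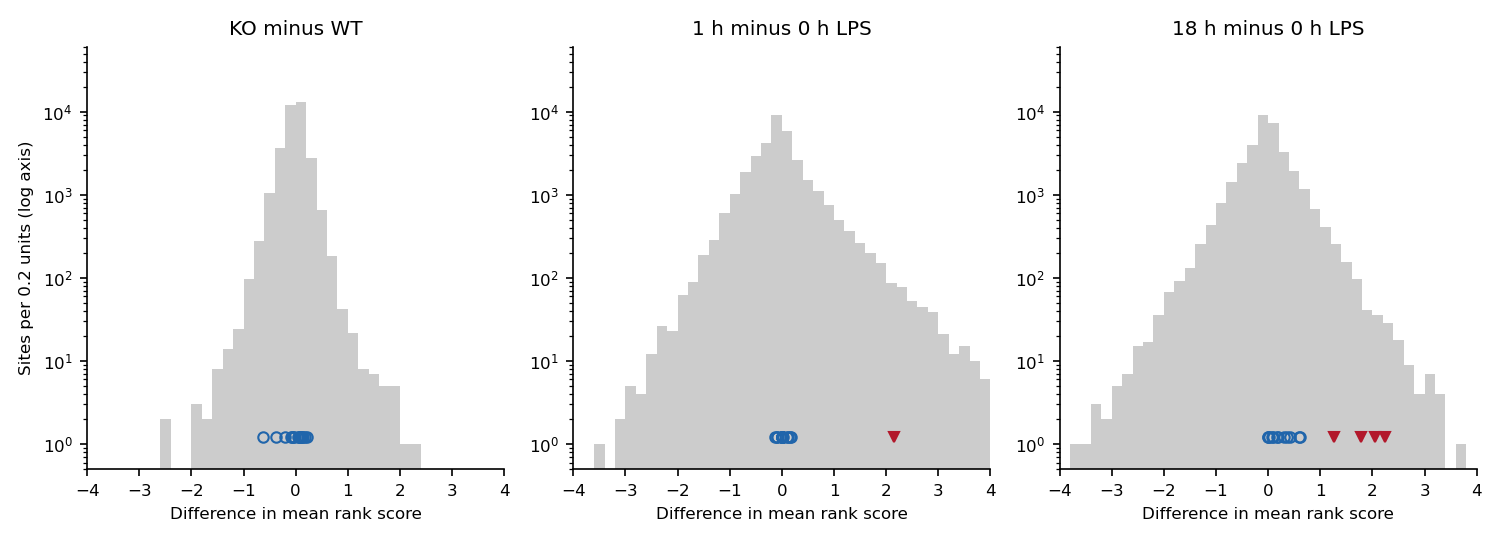
Differences in mean rank score for the 16 sites of the cluster (blue circles, and red triangles where called) over the histogram of all 34158 sites (grey, log axis). The triangles lie at 2.15 for 1 h and at 1.27, 1.78, 2.05 and 2.25 for 18 h, and the permutation test called no member between genotypes.

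No site was called between genotypes by the permutation test, while limma called Trim30d among 203 sites. Some starts of the cluster were listed less in KO than in WT lists, a description of the lists. Over all deposited peaks, with no matching of list length, the Trim12a start was listed in 8 of 8 WT and 0 of 9 KO lists. This split was seen at 5 sites in the genome (0.0146%), on 4 chromosomes, and the reverse at 4 sites, on 2 chromosomes. Those on chromosome 14 lay between positions 69850589 and 73049587, and those on chromosome 3 between 87401064 and 103695996. At the 5 sites within 1 Mb on either side of the window, the share of lists holding a site differed by at most 41.7% between genotypes. What this placement reflects was not tested. In WT lists the Trim12a summit held 34.2 to 62.1 times the background, and 8 of the 9 KO lists contained peaks weaker than 34.2 times. Every KO list was longer than the worst WT rank of 25756, the shortest having 27429 intervals, and KO 0 h replicate 1 and KO 1 h replicate 1, with 70397 and 70843 intervals, also lacked the peak. A peak that is not listed may still hold reads below the threshold. Trim12a was among the 16 sites through WT lists alone, with 6 of 8 WT and 0 of 9 KO lists holding it in their best 24389 peaks, so its score could not be higher in KO and its difference is given without a test. On the rank score the difference was -0.37. Presence in whole lists was compared after the data were seen.

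Trim30d, at the other end of the cluster, was the member whose rank scores did not overlap between genotypes at any LPS time. WT lists ranked it 16737, 20615 and 16201 at 0 h, 21970 and 14028 at 1 h and 9730, 10477 and 9008 at 18 h. Of the KO lists at 0 h only replicate 1 held a peak, at rank 62976, and none did at 1 h. At 18 h the KO lists gave 12925, 21868 and 24750, but in replicate 1 the summit lay at position 104506966, inside the gene, while in the other two it lay at 104507793 and 104507866, at the start. The summit held 48.6 to 80.9 times the background over the WT lists, 7.69 times in KO 0 h replicate 1, and 105, 31.3 and 25.5 times in the KO lists at 18 h. The mean rank score in KO was 0 at 0 h and 1 h and 0.36 ± 0.49 (SD, n = 3) at 18 h, against 0.46 ± 0.19 (n = 3), 0.47 ± 0.46 (n = 2) and 1.33 ± 0.11 (n = 3) in WT. The KO mean at 18 h rested mainly on replicate 1, the list with narrow intervals, with scores of 0.916, 0.157 and 0 in replicates 1 to 3.

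That pattern made Trim30d 1 of 57 sites (0.167%) with KO below WT and no overlap at any time. Its mean difference of -0.63 had the smallest p the design allows, 0.00025, which after adjustment over all sites was 0.119. The size depended on the scoring, at -0.021 with the best 10000 peaks, -0.147 with peaks covering 50% of the site and -1.46 with each list's full length, where the median of all sites was -0.273. With the best 10000 peaks, with 50% cover and with presence the Trim30d lists overlapped. Between genotypes 0 of 16 members and 0 of 34158 sites were called (0%) by the exact permutation test. At an unadjusted p under 0.05 there were 2367 sites (6.93%), and of the 16 members Trim30d was among them. Trim12a is left out of that count, because it was selected through WT lists alone and could not score higher in KO. By limma the count was 203 sites, with Trim30d among them (adjusted p = 0.0456, and 0.0456 to 1 over all alternatives).

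An intronic site of Trim30d, at chr7:104505675-104506125, was selected through KO lists at 1 h alone, so its higher listing in KO is a description. It was listed in all 3 KO lists at 1 h, at ranks 21867, 21979 and 18657, and in KO 0 h replicate 1 at 26177. Among the 8 WT lists only 18 h replicate 1 held it, at rank 50525. Its summit in KO cells at 1 h was 54.2 to 63.4 times the background and 33.3 times in the KO list at 0 h. The start of Trim5, a restriction factor gene that is not a member but lies between Trim34a and Trim12a, was likewise selected through WT lists alone. It was in 6 of 8 WT lists, with 18899, 26339 and 22088 at 18 h and 38969 to 48316 at 0 h, and in 0 of 9 KO lists. Its ranks at 0 h lay beyond the end of some KO lists, the shortest having 27429 intervals. Absence from those lists is therefore uninformative. Its ranks at 18 h lay within the length of every KO list. In height, however, these 20.5 to 30.5 times the background fell below the weakest peak of KO 18 h replicate 1, at 38 times.

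The other Trim30 and Trim12 starts did not share this split. Trim12c, Trim30b, Trim30c and both starts of Trim30a were listed in 8 of 8 WT and 9 of 9 KO lists, with differences between genotypes from -0.20 to 0.23, none called.

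**Figure D4:**
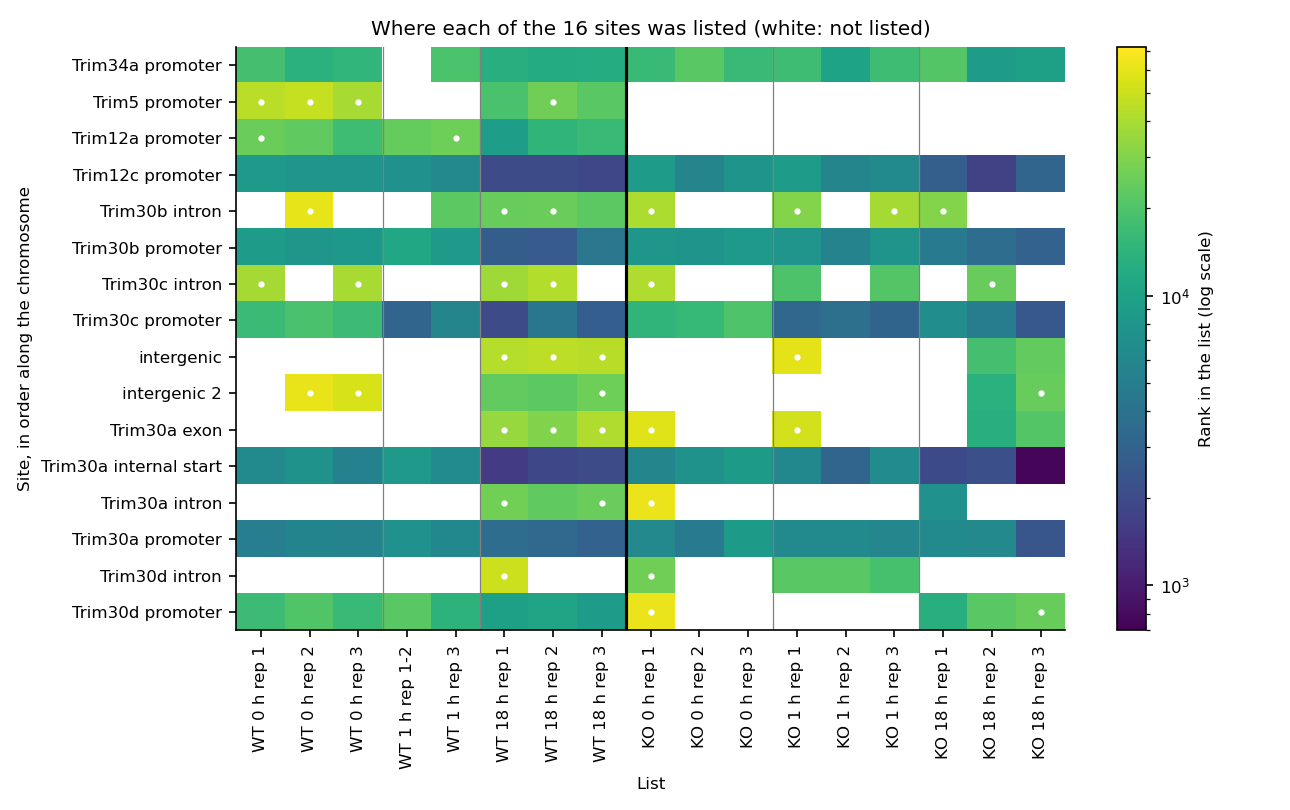
Rank of the 16 sites (rows, in order along the chromosome) in the 17 lists (columns, WT left and KO right of the thick line) on a log colour scale, white where no peak was listed and a white dot where the rank was beyond 24389. The rows of Trim5 and Trim12a are empty in KO, and that of Trim30d is empty in 5 of the 6 KO lists at 0 h and 1 h.

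Copies this alike limit where short reads can be placed. Of the 32-base words in the Trim12a site, 50% occurred elsewhere in the genome as well, against 28.8% at Trim12c, 19.4% at Trim30d and 23.3% at the main Trim30a start. Within 100 bases of the best summit the shares were 28.2% at Trim12a, 18.8% at Trim12c, 39.4% at Trim30d and 51.8% at Trim30a. The Trim5 site had the most, 62%. The peak names record a mapping quality of at least 20, which drops reads that fit several places, so peaks at these copies rest on their unique parts and values there are uncertain. The sites missing from all KO lists, Trim5 and Trim12a, had the highest shares over the whole site, while Trim30a, present in every list, had more repeated words at its summit than Trim30d. The part of read placement in these differences was not tested.

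No difference between the genotypes in the change after LPS passed the test. At 18 h, the score of Trim12c was higher by 2.03 in WT and 1.54 in KO, Trim30b by 1.42 and 1.12, Trim30c by 2.58 and 1.91, and the internal start of Trim30a by 1.81 and 2.30. At 1 h, Trim30c was higher by 2.03 in WT and 2.27 in KO. When genotype labels were exchanged within each time, a test added after the data were seen, 0 of 16 members and 0% of all sites were called at 1 h, and 0 of 16 and 0% at 18 h. At an unadjusted p under 0.05 there were 0 members at either time, with 1217 and 1215 sites in the genome, and limma called 61 and 12 sites, none of them in the cluster. Among sites that the selection did not tie to one genotype, the largest differences were 0.78 at Trim34a at 1 h (exact permutation p = 0.07, adjusted p = 0.925) and -0.67 at Trim30c at 18 h (exact permutation p = 0.22, adjusted p = 1). KO 18 h replicate 1, the list with narrow intervals, gave the lowest KO score at Trim30c, 1.854 against 2.308 and 3.278. It gave the highest at Trim30d, where the difference was -0.51. Neither difference was computed without that list, so their order may depend on it.

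The remaining sites were weaker. An intron each of Trim30b, Trim30c and Trim30a, a UTR exon of Trim30a and 2 intergenic sites between Trim30c and Trim30a were listed in 5 to 9 lists each. The Trim30a intron was in all 3 WT lists at 18 h, at 26851, 23343 and 24896, and at 7283 in KO 18 h replicate 1, the list with the narrow intervals. The UTR exon ranked 35244, 29863 and 41536 in WT at 18 h, and 12694 and 20955 in KO replicates 2 and 3, while replicate 1 lacked it. Counting all deposited peaks, the WT lists held 11 to 12 intervals in the window at 0 h, 7 and 9 at 1 h and 18 to 32 at 18 h, although the lists at 18 h were shorter overall (46364 to 61492 against 63097 to 71456 intervals). KO lists held 6 to 12 at 0 h, 7 to 12 at 1 h and 13 to 14 at 18 h. The KO lists at 18 h had only 29568 to 36136 intervals overall. Counts over all deposited peaks, here and in the next sentence, therefore cannot be compared between genotypes. A further 18 merged sites fell outside the 16, each in 1 to 4 lists, with 25 occurrences in WT lists at 18 h, 2 in WT at 0 h and 2 in KO at 18 h. Within the best 24389 peaks the interval counts were 7 to 8 in WT at 0 h and 10 to 11 at 18 h, and 6 in KO at 0 h and 8 to 12 at 18 h.

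Of 24 genes in the TRIM family and in the TLR4 and interferon pathways, 21 had a site at their promoter. At 18 h, 3 of the 21 were called higher and none lower, against 6.19% and 8.66% of all sites: Irf7, which drives type I interferon expression, by 3.37, Stat2, the interferon receptor transducer, by 1.63, and Myd88, the TLR adaptor, by 0.90 (each adjusted p = 0.0337). At 1 h, 2 were called higher and 1 lower, against 10.2% and 12.4% of all sites, so their number did not exceed the background. Map3k7, the kinase TAK1 that works with TAB2 and TAB3, was higher by 1.11 and the inflammasome sensor gene Nlrp3 by 1.09 (adjusted p = 0.0272), and Trim21, an intracellular antibody receptor, was lower (difference -0.73, adjusted p = 0.0442). The targets of TRIM30α were not called at either time, with Tab2 at 0.43 and Tab3 at -0.71 at 1 h and -0.12 and -0.20 at 18 h. Between genotypes none of the 21 was called.

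Across the 17 lists and 11406 genes with a promoter site, the pattern of the main Trim30a start was most like those of Apoc1 (Pearson r = 0.916), Apoe (0.916), Rhov (0.907), Dennd1c (0.886) and H2-T24 (0.866). For the other members, named after their values were seen, the closest gene was Slfn1 for the internal start (0.942), Ccdc88b for Trim12c (0.969), Phrf1 for Trim30b (0.945, equal with Irf7), Gbp2 for Trim30c (0.953), Oas1g for Trim12a (0.932), Fis1 for Trim34a (0.877) and Ampd3 for Trim30d (0.844). Within the cluster, the scores of Trim30b and the internal start correlated at 0.933 and those of Trim12c and Trim30b at 0.898, while Trim30c reached at most 0.595, with the internal start. All of these lists share their groups and depths, and the values are descriptions.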

How the data were processed

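Per the labels and methods, the authors trimmed reads with cutadapt 2.6, mapped them to mm10 and ran the snakeATAC pipeline, with 1 list for each sample. The peak caller is not given in the sources used here. The deposited lists hold a score (column 5), the fold of reads over background (column 7) and the −log10 p-value and −log10 q-value (columns 8 and 9). Peak names record a mapping quality of 20 and q of 0.001. Where entries shared an interval, the entry of lowest p-value stood for it, ties were ordered at random (seed 1), and peaks overlapping by 1 bp or more were merged. Genes came from GENCODE M21, and sequences from GRCm38 and the RefSeq promoter table. Named sites were those within 1 kb of a member start plus, per comparison, the 5 with the largest difference. Members and lists were chosen with earlier results of these data known. Exact permutation tests ran in Python 3.11.15 with numpy 2.4.6, beside limma 3.58.1, and were tested on simulated data. Alternatives were list length, overlap, consensus, scale, ties, window, limma, the replicate block and each list left out. No depth other than the list lengths and recovered backgrounds is known, and p-values measure the spread between lists.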

Additional observations from a re-analysis of the deposited data

How the results depend on the processing

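The 4 calls at 18 h held in every list left out in turn (4 to 5 sites called, with Trim34a added without KO 18 h replicate 1 and Trim30d without KO 18 h replicate 3), with the 10000 best peaks and under limma (6 sites, with Trim12a and Trim30d added). With all deposited peaks 4 sites were called, but Trim30b was lost (adjusted p = 0.0632) and Trim30d gained (adjusted p = 0.0321). With lists left out the member median at 18 h lay between 0.28 and 0.37. No site in the genome was called at 1 h or 18 h when peaks had to cover 50% of a site or when presence replaced the rank score, so 0 members were called. The number of members without overlap was 0 in all 3 comparisons under both settings. The replicate block, which pairs lists by number, called 0 members at 1 h and 0 at 18 h, since its smallest p-values are 0.125 and 0.03125; the same numbers deviated together in only 4 of 35 pairs (r above 0.1), so the numbers were not taken as pairing. With all deposited peaks, 0 members were called at 1 h, and with the narrow and the shallow list left out together 0. Leaving out each list gave 0 to 1 members at 1 h. Over all sites limma called 203 against 0 between genotypes and 7800 against 5072 at 18 h, and with the 10000 best peaks 2312 against 7734 sites were called at 1 h, 1265 and 3482 of them higher, among fewer sites tested (14727). Between genotypes, limma called 1 member, and sites without overlap numbered 0 with the 10000 best peaks and 2 with all deposited peaks. Member medians of 0.056 (KO minus WT), 0.004 (1 h) and 0.33 (18 h) moved to -0.20, -0.16 and 0.51 with all deposited peaks, where the medians of all sites were -0.273, -0.537 and -0.401. The 18 h median moved to 1.27 with the 10000 best, 0.14 with 50% cover and 0.94 for sites in 5 lists. Medians on the presence and linear scales are in other units and are not given.

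Reversals were limited to differences that were not called. With all deposited peaks, KO minus WT became -0.11 at Trim34a, -0.14 at Trim30b, -0.023 at the internal start of Trim30a and -0.088 at its intron, and the 1 h difference -0.24 at Trim12c, -0.41 at Trim30b, -0.26 at the internal start and -0.55 at Trim30d. With 50% cover, KO minus WT became -0.13 at Trim34a, -0.069 at Trim30b, 0.57 at Trim30c, -1.67 at the internal start and -0.007 at the Trim30a intron, and the 1 h difference -1.04 at Trim12c, -0.12 at Trim30b and -0.63 at the internal start. Average ranks for ties gave -0.02 at Trim30b at 1 h. Under the replicate block, KO minus WT was -0.052 at Trim34a and -0.043 at Trim30b, and the 1 h difference at Trim34a 0.12. With the narrow and the shallow list left out, KO minus WT was 0.19 at Trim30c and -0.007 at the Trim30a intron. With lists left out in turn, KO minus WT ran from -0.20 to 0.08 at Trim30c and from -0.007 to 0.28 at the Trim30a intron, and the 1 h difference from -0.083 to 0.10 at Trim30b, from -0.002 to 0.26 at the internal start and from -0.15 to 0.17 at Trim30d. The causes were not tested.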
